A study of Mus musculus with 30 samples.

Results

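Interferon response genes are genes that cells transcribe after interferons, the cytokines that announce infection, reach their receptors. The 9 followed here are the transcription factors Irf1 and Irf7, the guanylate binding protein Gbp2, the antiviral genes Isg15, Ifi27, Ifit1, Ifit3 and Bst2, and B2m, the light chain of MHC class I. They are 9 of the 22477 genes of the RNA-seq table and were chosen by name from earlier results of this table, because Irf1, Gbp2 and Isg15 were lower with doxycycline (dox). Their –dox and +dox values are therefore a description and carry no test. In cells re-seeded after 0, 24, 48 and 96 h of differentiation, 1, 3, 4 and 7 members were at least 2-fold lower with dox than without. Of all genes that reached 1 FPKM, 5.61%, 3.40%, 6.46% and 11.1% were. B2m was at least 2-fold higher with dox at 0 and 24 h, as were 3.62% and 2.87% of genes. At 96 h B2m stood at 399.3 FPKM without and 407.4 FPKM with dox.

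In the textbook scheme, type I interferons and interferon gamma signal through receptor-bound JAK kinases to STAT proteins. Complexes that hold STAT2 and IRF9 bind the interferon-stimulated response element (ISRE), and STAT dimers bind the gamma-activated site (GAS). IRF1 and IRF7 are themselves products of this response and switch on further targets. Pluripotent stem cells are known for a weak interferon response, which strengthens as they differentiate.

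The cells were mouse secondary induced pluripotent stem cells (iPSCs) that carry dox-inducible OSKM (Oct4, Sox2, Klf4 and Myc), GFP at the endogenous Nanog locus and a constitutive nuclear RFP, and had been kept on CF1 mouse embryonic fibroblast (MEF) feeders. RNA was collected at 0, 24, 36, 48, 60, 72 and 96 h after withdrawal of 2i/LIF, the inhibitors and cytokine that hold naive pluripotency, and from cells that, after 0, 24, 48 or 96 h of this differentiation, spent 48 h in serum/LIF after re-seeding, either with 2 µg/ml dox (+dox) or with none (–dox). All conditions share this 1 line and its transgenes. The 15 conditions, 7 of withdrawal and 8 re-seeded, have 2 replicates each, 30 samples in all, but the deposited table combines the replicates into 1 FPKM value per condition (fragments scaled to the length of the transcript and to the mapped fragments of the library). The spread between replicates is therefore unknown, no difference here could be tested, and no order of nearby values can be shown to exceed that spread.

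FPKM is a level per length of transcript, so values of different genes can be set side by side. Read counts are not given. Low values fall on regular steps in 1380 genes whose single transcript spans 2500 bp or more, and by these a 2 kb gene at 1 FPKM stood at between 26.7 steps (36 h) and 92.9 steps (0 h –dox). Values under 1 FPKM in a short gene thus rest on few reads. Of the 22477 genes, between 2756 and 5090 were listed at 0 in a condition. In these bulk data, fewer cells with a transcript and less transcript per cell cannot be told apart.

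Stretches upstream of the transcription start are shown for the 7 members that hold a motif of the interferon response there, since the members are grouped by this response. They come from the RefSeq start sites on GRCm38.p6 (mm10), and windows were found for 8 of the 9 members, all but Ifi27. The ISRE core was searched as GAAANNGAAA or TTTCNNTTTC and the GAS core as TTCNNNGAA, which reads the same on both strands. For Irf1 and Isg15 the whole 250 bases before the start are shown, and for the other 5 an excerpt around the matches that ends short of the start. The last match ends 50 bases before the start in Gbp2, 76 in Ifit1, 113 in Ifit3, 115 in Bst2 and 130 in B2m. Capitals mark the matches, and each line runs 5′ to 3′ on the strand of the gene.
Gbp2: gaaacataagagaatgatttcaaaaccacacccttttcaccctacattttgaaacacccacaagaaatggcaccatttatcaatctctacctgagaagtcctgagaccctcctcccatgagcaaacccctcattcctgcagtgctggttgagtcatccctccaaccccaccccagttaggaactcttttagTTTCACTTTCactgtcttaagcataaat
Irf1: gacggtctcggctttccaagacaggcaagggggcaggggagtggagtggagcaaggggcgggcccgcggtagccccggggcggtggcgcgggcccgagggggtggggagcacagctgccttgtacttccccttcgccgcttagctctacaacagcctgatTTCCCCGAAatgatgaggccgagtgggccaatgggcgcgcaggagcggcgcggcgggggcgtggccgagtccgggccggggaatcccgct
Isg15: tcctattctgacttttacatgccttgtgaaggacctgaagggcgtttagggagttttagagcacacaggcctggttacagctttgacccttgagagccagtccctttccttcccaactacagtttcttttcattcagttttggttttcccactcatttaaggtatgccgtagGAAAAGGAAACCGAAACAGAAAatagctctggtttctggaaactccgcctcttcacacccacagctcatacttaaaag
Ifit1: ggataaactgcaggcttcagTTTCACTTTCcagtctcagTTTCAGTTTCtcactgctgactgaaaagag
Ifit3: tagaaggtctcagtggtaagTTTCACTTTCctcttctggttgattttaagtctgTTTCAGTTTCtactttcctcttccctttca
Bst2: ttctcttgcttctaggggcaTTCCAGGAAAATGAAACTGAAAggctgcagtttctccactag
B2m: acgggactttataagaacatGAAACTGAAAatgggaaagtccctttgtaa
In the whole windows of 250 bases before the start, 6 of the 8 members held the ISRE core (Gbp2, Isg15, Ifit1, Ifit3, Bst2 and B2m), against 2.98% of all 32851 RefSeq windows. The GAS core stood in 2 members, Irf1 and Bst2, against 7.02% of all windows. Isg15 held 3 ISRE matches that overlap each other, between 78 and 57 bases before the start. The 2 ISRE matches of Bst2 overlap each other, and 1 of them overlaps its GAS match. Irf7 held neither core. A match says only that these letters stand there.

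The stretches lie at chr3:142620413-142620631 on the plus strand for Gbp2, at chr11:53769764-53770013 on the plus strand for Irf1 and at chr4:156200819-156201068 on the minus strand for Isg15. That of Ifit1 is chr19:34640765-34640833 and that of Ifit3 chr19:34583353-34583436, both on the plus strand of the same chromosome. Bst2 lies on the minus strand, with its stretch at chr8:71537567-71537628, and B2m on the plus strand, at chr2:122147528-122147577. Gencode M21 starts the Gbp2 gene upstream of the RefSeq start used here, at base 142620602.

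During 2i/LIF withdrawal, transcripts of 7 members were at least 2-fold lower at 24 h than at 0 h, and of these Gbp2 and B2m were higher again by 96 h. The other 2, Irf1 and Bst2, stood at a similar or higher level at 24 h. The highest value of the time course came at 0 h for 6 of the 9 members. The 7 lower members compare with 14.3% of 12884 genes that were 2-fold lower at 24 h with the higher value at 1 FPKM or more, and none of the 9 was 2-fold higher, where 8.64% of genes were. Of the 7, Irf7, Gbp2, Ifit1 and Ifit3 reach 1 FPKM through their 0 h value alone, so this count is partly set by the filter. From 24 to 96 h, Gbp2, Bst2 and B2m were at least 2-fold higher, which is 3 of the 6 members that reached 1 FPKM, against 20.5% of 13214 genes. Ifi27 was the 1 lower member in that interval, against 16.3% of genes. Here Gbp2 enters through its 96 h value alone and Ifi27 through its 24 h value alone. Each of the 9 differed 2-fold between some pair of timepoints, as did 60.7% of the 14091 genes that reached 1 FPKM.

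**Figure D1:**
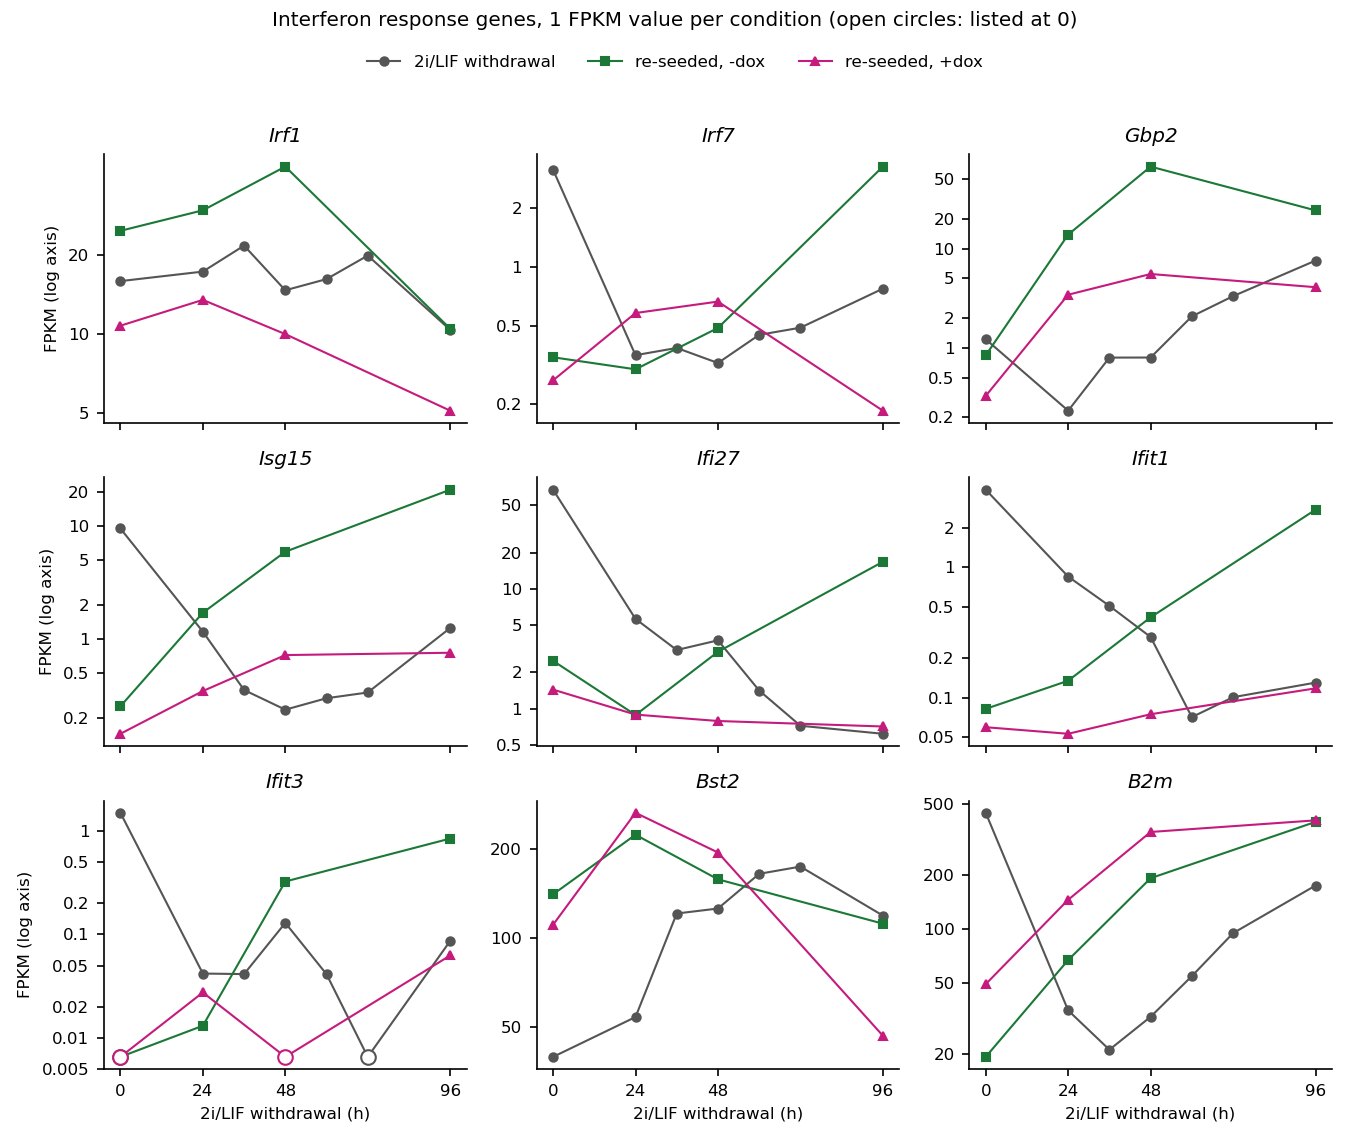
Level of each of the 9 genes in FPKM (log axis) against hours of 2i/LIF withdrawal, in the withdrawal time course (grey circles), after re-seeding without dox (green squares) and with dox (magenta triangles). Each symbol is 1 value per condition with no error, and open circles mark values listed at 0, which for Ifit3 at 0 h hold in both re-seeded conditions. Gbp2 reached 67.1 FPKM at 48 h –dox and 5.54 FPKM at 48 h +dox.

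Irf1 and Irf7 are transcription factors of the interferon regulatory factor family, Irf1 best known downstream of interferon gamma and Irf7 as an amplifier of type I interferon production. Irf1 was present in every condition. During withdrawal it stood at 15.9, 17.3, 21.7, 14.7, 16.2, 19.9 and 10.4 FPKM at 0, 24, 36, 48, 60, 72 and 96 h, a range of about 2-fold with its lowest value last. Re-seeded –dox cells held 24.7, 29.6, 43.3 and 10.5 FPKM of Irf1 after 0, 24, 48 and 96 h, and re-seeded +dox cells 10.8, 13.5, 10.0 and 5.12 FPKM. At each matched time the +dox value was the lower, by 2.29-fold, 2.19-fold, 4.33-fold and 2.05-fold in that order. At 48 h –dox cells also held 2.95-fold more Irf1 than the cells of the 48 h timepoint they came from.

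Irf7 was a low transcript, at 1 FPKM or more in only 2 of the 15 conditions. These were the start of withdrawal, at 3.15 FPKM, and 96 h –dox, at 3.27 FPKM. Its other 13 values lay between 0.184 FPKM (96 h +dox) and 0.775 FPKM (96 h of withdrawal). The level at 96 h was 17.8-fold lower with dox. At 24 and 48 h the +dox values, 0.582 and 0.666 FPKM, were above the –dox values, 0.300 and 0.488 FPKM, with neither reaching 1 FPKM. The RNA-seq notes do not say whether strand was used in counting, and Irf7 overlaps Phrf1, Irf1 overlaps Gm17334 and B2m overlaps Patl2 on the opposite strand, so reads of these pairs may not have been told apart.

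Gbp2, a GTPase that gathers on pathogen-containing vacuoles, had the widest –dox to +dox gap at 48 h among members that reached 1 FPKM. In the time course it was at 1.22, 0.232, 0.795, 0.796, 2.07, 3.31 and 7.56 FPKM, a minimum at 24 h followed by a 32.6-fold higher level at 96 h. Re-seeding in serum/LIF without dox gave 0.838, 13.8, 67.1 and 24.3 FPKM after 0, 24, 48 and 96 h of differentiation. The corresponding +dox levels were 0.327, 3.43, 5.54 and 4.08 FPKM. Both arms were highest at 48 h, and +dox was lower by 4.04-fold at 24 h, 12.1-fold at 48 h and 5.95-fold at 96 h. At 0 h neither arm reached 1 FPKM. Set against the timepoints they were re-seeded from, –dox cells held 59.7-fold more Gbp2 at 24 h, 84.3-fold more at 48 h and 3.21-fold more at 96 h.

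Isg15, Ifi27, Ifit1 and Ifit3 are antiviral genes of the type I response. Isg15 encodes a ubiquitin-like protein that is joined to other proteins, Ifi27 a small hydrophobic protein, and Ifit1 and Ifit3 members of a family that binds viral RNA. All 4 were highest in the time course at 0 h, and in all 4 the highest re-seeded value was that of 96 h –dox. Isg15 was at 9.44 FPKM at 0 h and 1.16 FPKM at 24 h, between 0.239 and 0.357 FPKM from 36 to 72 h, and at 1.25 FPKM at 96 h. Its re-seeded –dox levels were 0.256, 1.71, 5.90 and 20.8 FPKM at 0, 24, 48 and 96 h. With dox they were 0.147, 0.349, 0.724 and 0.759 FPKM, so no +dox value reached 1 FPKM. The gap widened with the time of differentiation, from 4.90-fold at 24 h to 8.14-fold at 48 h and 27.3-fold at 96 h.

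Ifi27 started at 67.3 FPKM, the highest value of any of these 4 genes, and was at 5.61, 3.08, 3.71, 1.41, 0.718 and 0.615 FPKM over the following timepoints. It was the 1 member whose lowest value of all 15 conditions was the 96 h timepoint. The –dox cells held 2.50, 0.883, 2.98 and 16.8 FPKM at 0, 24, 48 and 96 h. The +dox cells held 1.44, 0.889, 0.787 and 0.708 FPKM, and so lay level with –dox at 24 h, 3.78-fold lower at 48 h and 23.8-fold lower at 96 h.

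Ifit1 reached 1 FPKM at 0 h of withdrawal (3.95 FPKM) and at 96 h –dox (2.78 FPKM), and nowhere else. At 96 h +dox it was at 0.118 FPKM, 23.5-fold lower. Ifit3 passed 1 FPKM only at 0 h, at 1.503 FPKM, was listed at 0 in 4 conditions, and stood at 0.847 FPKM at 96 h –dox and 0.0627 FPKM at 96 h +dox. The latter corresponds to about 1.94 of the steps described above and the former to about 22.4, so the Ifit3 values are imprecise. In addition, 51.2% of the 50-base stretches of Ifit3 transcripts are shared with Ifit3b, and reads could have been divided between the 2 genes in either way. For Ifit1 the shared portion was 7.13%, for Isg15 3.96% and for Gbp2 2.03%, and the other 5 members shared none.

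Bst2, also called tetherin, holds budding virus at the cell surface, and it followed a course of its own. It was lowest at 0 h, at 39.5 FPKM, and was at 53.9, 120.9, 125.7, 164.8, 174.3 and 119.0 FPKM at the later timepoints. Re-seeded –dox cells held 140.4, 223.4, 157.8 and 111.7 FPKM, and +dox cells 110.8, 265.1, 194.5 and 46.6 FPKM, at 0, 24, 48 and 96 h. Below a 2-fold difference, +dox was 1.19-fold higher at 24 h and 1.23-fold higher at 48 h, while at 96 h it was 2.40-fold lower. Its range over the 15 conditions, from 39.5 to 265.1 FPKM, lay above every value of Irf7, Isg15, Ifit1 and Ifit3.

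B2m encodes beta-2-microglobulin, which pairs with the heavy chains of MHC class I on nearly all somatic cells. It had the highest single value of the members, 449.1 FPKM at 0 h of withdrawal, and stood at 34.9, 21.0, 32.2, 54.4, 94.8 and 175.4 FPKM at the later timepoints. Re-seeded –dox cells held 19.2, 67.0, 192.9 and 399.3 FPKM at 0, 24, 48 and 96 h. Here +dox cells had more, not less: 49.1, 146.0, 350.6 and 407.4 FPKM. The excess was 2.56-fold at 0 h, 2.18-fold at 24 h and 1.82-fold at 48 h, and 1.02-fold at 96 h.

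The heavy chain genes H2-K1 and H2-D1 were read beside B2m because their proteins act as 1 complex. H2-K1 was at 20.6, 41.3, 72.8 and 66.5 FPKM in –dox cells and at 15.6, 24.8, 39.6 and 50.5 FPKM in +dox cells at 0, 24, 48 and 96 h, lower with dox each time. H2-D1 was at 7.82, 13.2, 32.7 and 57.2 FPKM without dox and at 8.70, 10.6, 12.5 and 24.7 FPKM with dox, lower at all times but 0 h. The light chain and the heavy chains thus differed in opposite directions at 24 and 48 h. At 48 h the level of B2m was 2.65 times that of H2-K1 in –dox and 8.86 times in +dox cells, and the multiple for H2-D1 was 5.91 and 28.2.

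**Figure D2:**
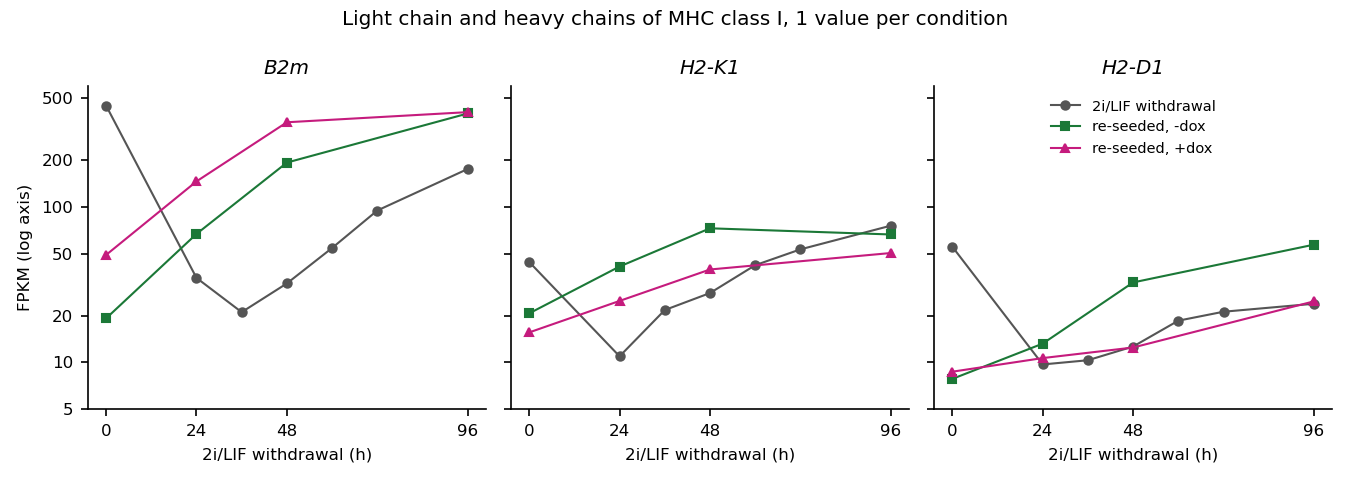
FPKM (log axis) of B2m, the light chain of MHC class I, and of the heavy chains H2-K1 and H2-D1 against hours of 2i/LIF withdrawal, with 1 value per condition and no error. At 48 h +dox, B2m stood above –dox (350.6 against 192.9 FPKM), while H2-K1 (39.6 against 72.8 FPKM) and H2-D1 (12.5 against 32.7 FPKM) stood below it.

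The members lower and higher with dox were also counted at each time of differentiation. A member was counted when its values differed at least 2-fold and the higher reached 1 FPKM. At 0 h this held for 1 lower member, Irf1, and 1 higher member, B2m, where 5.61% of 12751 genes were lower and 3.62% higher. At 24 h Irf1, Gbp2 and Isg15 made 3 lower members and B2m 1 higher, against 3.40% and 2.87% of 12708 genes. At 48 h 4 members were lower, the same 3 and Ifi27, and none was higher, against 6.46% and 6.56% of 12665 genes. At 96 h 7 members were lower, all but Ifit3 and B2m, and none was higher, against 11.1% and 6.67% of 12688 genes. The members were picked with this contrast in view and a member low in +dox enters only through its –dox value, so nothing is read from these counts.

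Over the members that reached 1 FPKM, the median log2 ratio of +dox to –dox was -0.57 at 0 h (4 members), -1.13 at 24 h (5), -2.02 at 48 h (6) and -3.36 at 96 h (8). Over all genes it was 0.05, 0.02, -0.02 and -0.01. Isg15 passes this filter through its –dox value alone at 24 h, Isg15 and Ifi27 at 48 h, and Irf7, Isg15, Ifi27 and Ifit1 at 96 h. Over members reaching 5 FPKM these medians became -0.34, -0.44 and -1.92 for 0, 24 and 96 h, and with a pseudocount of 1 FPKM it was -1.80 at 96 h.

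**Figure D3:**
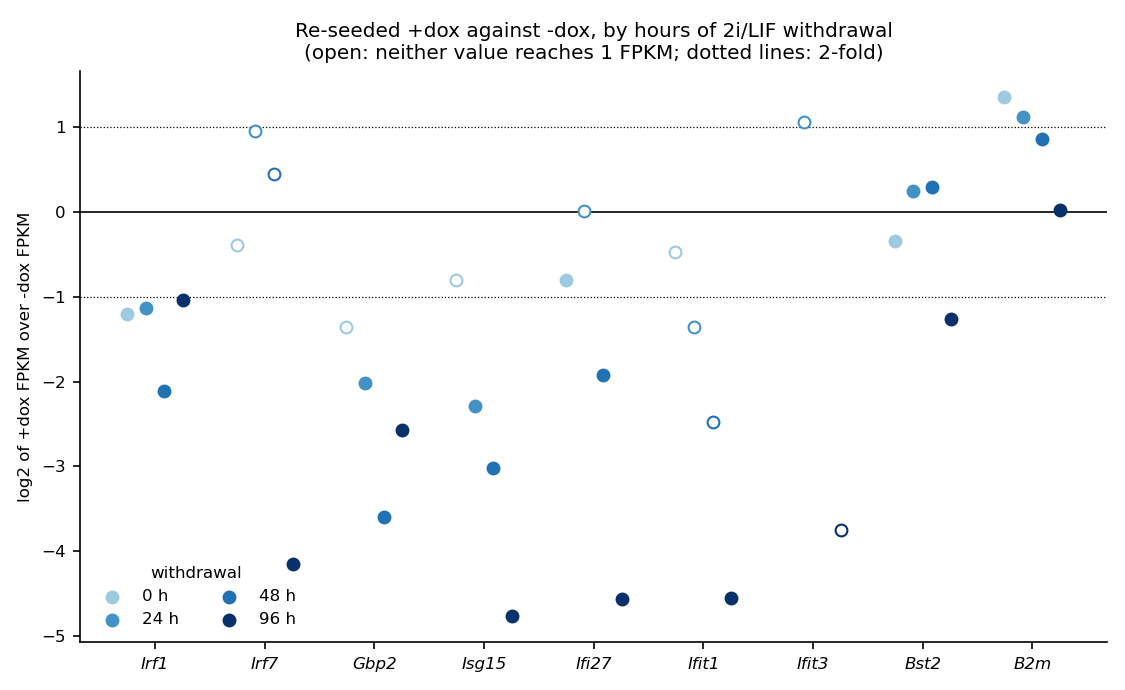
Log2 ratio of +dox to –dox FPKM for each member after 0, 24, 48 and 96 h of 2i/LIF withdrawal (light to dark), with dotted lines at 2-fold, and open circles where neither value reached 1 FPKM. Ratios of Ifit3 at 0 and 48 h are left out because a value is listed at 0. Isg15 lay lowest, at -4.77 at 96 h, and B2m highest, at 1.36 at 0 h.

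Re-seeding in serum/LIF without dox changed the members in opposite ways, depending on when the cells were taken. Medium, the added 48 h, re-plating and possibly the substrate differ together in this comparison and cannot be told apart. From 0 h, 6 members were at least 2-fold lower after re-seeding than at the timepoint itself (Irf7, Isg15, Ifi27, Ifit1, Ifit3 and B2m), against 10.1% of 13096 genes, and Bst2 was higher, against 12.0%. From 24 h, Gbp2 and Bst2 were higher, against 14.9% of 12985 genes, and Ifi27 lower, against 10.6%. From 48 h, 4 were higher (Irf1, Gbp2, Isg15 and B2m), against 15.3% of 12843 genes, and none lower, against 11.5%. From 96 h, 6 were higher (Irf7, Gbp2, Isg15, Ifi27, Ifit1 and B2m), against 12.4% of 13022 genes, and none lower, against 11.2%. Members reaching 1 FPKM in either value numbered 9, 6, 6 and 8 from 0 to 96 h. Irf7, Isg15, Ifit1 and Ifit3 from 0 h and Ifi27 from 24 h entered through the timepoint value alone. Through the re-seeded value alone entered Gbp2 from 24 h, Gbp2 and Isg15 from 48 h, and Irf7, Ifi27 and Ifit1 from 96 h. These counts are therefore partly set by the filter.

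The sizes were large at both ends. B2m went from 449.1 FPKM at 0 h to 19.2 FPKM after re-seeding from 0 h, 23.4-fold lower, and Isg15 from 9.44 to 0.256 FPKM, 36.9-fold lower. From 96 h the same genes stood higher after re-seeding, B2m by 2.28-fold and Isg15 by 16.6-fold, and Ifi27 by 27.3-fold. With dox, Irf7, Isg15, Ifit1 and Ifit3 were under 1 FPKM in all 4 re-seeded conditions. Without dox, Ifit3 was also under 1 FPKM in all 4, Irf7 and Ifit1 in all but that from 96 h, and Isg15 in that from 0 h.

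The wider pathway was read through 9 lists, written from general knowledge, that name 150 other genes of interferon signaling and response. Of these 136 were in the table and 114 reached 1 FPKM in some condition. At 48 h, 33 of the 93 that reached 1 FPKM in either arm were at least 2-fold lower with dox and 5 higher, with a median log2 ratio of -0.50, where 6.46% of all genes were lower and 6.56% higher. At 96 h it was 35 lower and 4 higher of 95, with a median of -0.74, against 11.1% and 6.67% of all genes. At 0 h 5 of 79 were lower and 2 higher, with a median of -0.07, close to the 5.61% and 3.62% of all genes. At 24 h 11 of 84 were lower and 2 higher, with a median of -0.12, against 3.40% and 2.87% of all genes. The counts of single lists below are to be read against the same shares. A gene under 1 FPKM in +dox enters any of these counts only through its –dox value. At 0 h the lower genes were H2-Q4, Lgals9, Rnf213, Irgm1 and Zbp1 and the higher ones Cxcl16 and Irf2, and at 24 h the higher ones were Oas1g and Ccl2. These and the genes of other small counts that fall outside the naming rule, Ifnlr1, Gbp3, Gbp7, Igtp, Irgm2, H2-D1, Psme2, Tapbpl, H2-T24, Tmem173, Zbp1, Ifih1, Ccl7, Cd274 and Casp4, were chosen after their values were seen.

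Interferon ligands were not seen. Of 10 listed, 4 were in the table, none reached 1 FPKM, and the highest single value was 0.114 FPKM, of Ifnk at 36 h. The receptors and JAK-STAT genes were all present, and 1 of 12 was lower and 1 higher with dox at 48 h (median log2 ratio -0.01). Il10rb, a receptor chain for interferon lambda, was the lower gene, at 3.13 FPKM without and 1.02 FPKM with dox. Ifnlr1, the other chain of that receptor, was the higher gene, at 0.801 and 1.69 FPKM. At 96 h Irf9 was lower, at 13.3 FPKM –dox and 4.03 FPKM +dox, and Stat2, its partner, was at 6.09 and 6.80 FPKM.

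Guanylate binding proteins and the related IRG GTPases were read beside Gbp2. From 24 to 96 h of withdrawal, where Gbp2 was higher, 2 of the 6 that reached 1 FPKM were lower and 4 higher. All genes gave 16.3% and 20.5%. Irgm1 was 1 of the lower genes, at 10.2 FPKM at 24 h and 1.54 FPKM at 96 h. All 6 that reached 1 FPKM at 48 h were at least 2-fold lower with dox, with a median log2 ratio of -2.89, and 5 of 6 at 96 h. Through the –dox value alone entered Gbp3, Gbp7, Igtp and Irgm2 at 48 h, and Gbp3, Igtp, Irgm1 and Irgm2 at 96 h. These counts are therefore partly set by the filter. Gbp5 was at 51.5 FPKM without and 3.33 FPKM with dox at 48 h, and at 16.0 and 3.30 FPKM at 96 h. The others at 48 h were Gbp3 (4.78 and 0.707 FPKM), Gbp7 (3.48 and 0.407 FPKM), Igtp (3.67 and 0.786 FPKM) and Irgm2 (1.52 and 0.593 FPKM), of which Gbp7 was the 1 that differed less than 2-fold at 96 h. Irgm1, which guards the cell's own membranes, was at 8.90 and 1.10 FPKM at 48 h and at 4.92 and 0.730 FPKM at 96 h.

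In the antigen presentation list, 10 of 21 genes were lower and none higher at 48 h (median -0.92), and 4 of 17 lower and 1 higher at 96 h (median -0.47). Psmb8, a subunit of the immunoproteasome that cuts peptides for MHC class I, was at 5.28 FPKM without and 0.317 FPKM with dox at 48 h. Erap1, which trims those peptides, was at 5.63 and 1.08 FPKM. The chaperones Calr and Canx were at 199.3 and 215.2 FPKM and at 166.7 and 177.0 FPKM. At 96 h the lower genes were H2-D1, H2-Q4, Psme2 and Tapbpl and the higher one H2-T24, a class Ib heavy chain, at 0.287 and 1.00 FPKM. H2-Q4, a further heavy chain, was at 3.76 and 1.36 FPKM, Psme2, a proteasome activator subunit, at 124.2 and 48.0 FPKM, and Psmb9, another immunoproteasome subunit, at 1.48 and 2.08 FPKM.

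Antiviral effectors other than the members were lower with dox in 9 of 24 cases at 48 h and 16 of 30 at 96 h, and higher in 2 at each time (medians -0.66 and -1.12). Ifi35 was at 4.29 FPKM without and 0.942 FPKM with dox at 48 h, and Parp9 at 5.10 and 1.37 FPKM. Pml, the organizer of PML nuclear bodies, was higher with dox, at 29.5 and 68.2 FPKM, as was Xaf1, at 2.05 and 4.34 FPKM. At 96 h Rtp4 was at 7.64 and 0.217 FPKM and Lgals3bp at 19.1 and 1.02 FPKM, whereas Ifitm1, which blocks virus entry and is abundant in stem cells, was at 39.3 and 86.0 FPKM and Tor3a at 3.79 and 12.2 FPKM.

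The lists of regulators hold the other IRF family, the sensing genes and the inhibitors. Of the other IRF family genes, none was lower and 1 was higher with dox at 48 h (Irf2bpl, at 27.6 and 61.6 FPKM). Irf3, the sensor-activated factor of this family, was at 41.3 and 22.6 FPKM at 96 h. Of the nucleic acid sensing genes, 3 of 9 were lower at 48 h, the kinase Ikbke (1.24 and 0.532 FPKM), the STING gene Tmem173 (1.03 and 0.180 FPKM) and Zbp1 (1.26 and 0.390 FPKM). At 96 h 2 of 9 were lower, Tmem173 (2.14 and 0.797 FPKM) and Ifih1 (2.28 and 0.411 FPKM), which encodes the RNA sensor MDA5, and none was higher at either time (medians -0.59 and -0.74). The adaptor Mavs was at 5.03 and 7.51 FPKM at 48 h and Myd88 at 8.29 and 4.25 FPKM at 96 h.

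Among negative regulators of the pathway, 1 of 9 was lower and 1 higher at 48 h and 2 of 10 lower at 96 h. Socs1, the feedback inhibitor of JAK kinases, was at 8.38 FPKM without and 3.72 FPKM with dox at 48 h and at 3.70 and 1.08 FPKM at 96 h. Socs3 was the higher gene, at 21.3 and 43.0 FPKM at 48 h. Usp18, which removes ISG15 from proteins, was at 8.88 and 1.89 FPKM at 96 h. The list of chemokines also holds Cd274, the PD-L1 gene, and Casp4. In it 3 of 5 were lower at 48 h (Ccl7, Cd274 and Cxcl10) and 4 of 5 at 96 h (Casp4, Ccl7, Cxcl10 and Cxcl16), and none was higher. Cxcl10, a T cell attractant, was at 13.6 and 1.38 FPKM at 48 h and at 5.13 and 0.867 FPKM at 96 h, and Cxcl16 at 21.8 and 17.4 FPKM and at 11.3 and 5.33 FPKM.

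**Figure D4:**
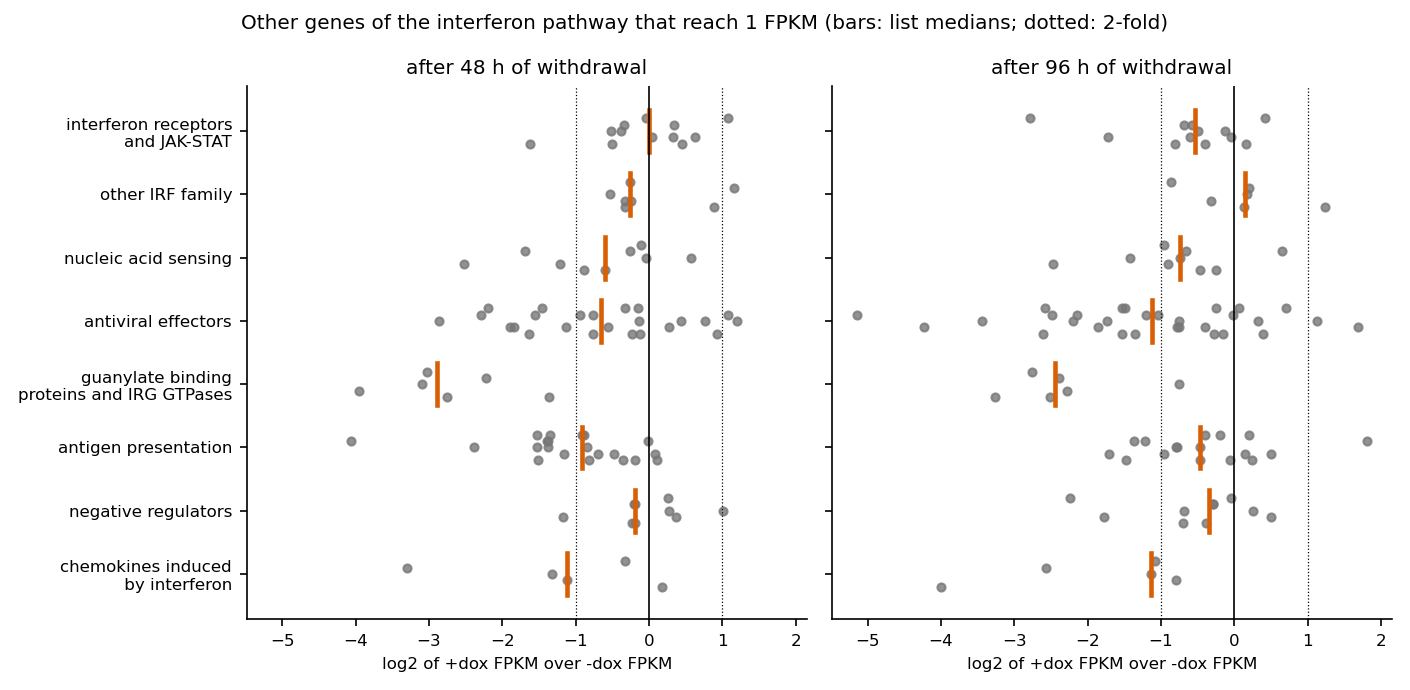
Log2 ratio of +dox to –dox FPKM after 48 h (left) and 96 h (right) of withdrawal for genes of 8 lists of the interferon pathway, each grey point 1 gene that reached 1 FPKM in either arm and is above 0 in both, with orange bars at list medians and dotted lines at 2-fold. The guanylate binding proteins lay lowest at both times, with medians of -2.89 and -2.45, and the receptors and JAK-STAT genes had medians of -0.01 and -0.54.

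Likeness of pattern was measured as Pearson's r of log2(FPKM + 1) over the 15 conditions, against 9069 genes that reached 10 FPKM somewhere, as a description with no p. The conditions share 1 cell line, and each timepoint shares its origin with the cells re-seeded from it. Gbp5 was most like Gbp2 (r = 0.99), before Rbbp7 (0.95) and Psme1 (0.90), a proteasome activator subunit. Without the 2 conditions in which Gbp2 is highest, a check added after seeing the data, these were 0.98, 0.92 and 0.72. Wdr53 (0.79), Trmt61a (0.74) and Nodal (0.74) came nearest to Irf1, with 0.82, 0.78 and 0.61 without its 2 highest conditions. For Isg15 the nearest were Creb3l1 (0.93), Tmem176b (0.91) and Gtf2b (0.90), with 0.79, 0.72 and 0.64 without its 2 highest conditions.

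Among the members, Irf7, Isg15, Ifi27, Ifit1 and Ifit3, grouped here after their values were seen, had r between 0.73 and 0.96 in their 10 pairs. Without 0 h of withdrawal and 96 h –dox, the range over the other 13 conditions was -0.32 to 0.82, so the likeness rests on those 2 conditions. Irf1 with each of the other members gave r between -0.44 (B2m) and 0.37 (Bst2).

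The same 2 conditions stood apart in markers of fibroblasts. Summed over 20 fibroblast markers, the level was 1224 FPKM at 0 h of withdrawal, between 68.5 and 178.5 FPKM at the later timepoints, between 97.4 and 282.0 FPKM in –dox and between 102.0 and 262.4 FPKM in +dox cells. Fn1 (fibronectin) made up much of this, for instance 188.3 FPKM of the 205.2 FPKM at 0 h –dox, and without it the sums were 930.2 FPKM at 0 h, 177.5 FPKM at 96 h –dox and between 16.9 and 92.2 FPKM in the other 13 conditions. Of the 20 markers, 17 reached 1 FPKM at 0 h, 16 at 24 h and 15 at 96 h –dox, and between 7 and 12 in the other 12 conditions. At 0 h of withdrawal, 96 h –dox and 96 h +dox, Col1a1 was at 228.7, 33.2 and 3.47 FPKM and Col1a2 at 160.0, 86.0 and 13.2 FPKM. Irf7, Isg15, Ifi27, Ifit1, Ifit3 and B2m were high in both conditions. B2m was also high at 48 and 96 h +dox, at 350.6 and 407.4 FPKM, where the sums without Fn1 were 29.3 and 36.7 FPKM. Whether MEFs or other differentiated cells contributed to these members was not tested.

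**Figure D5:**
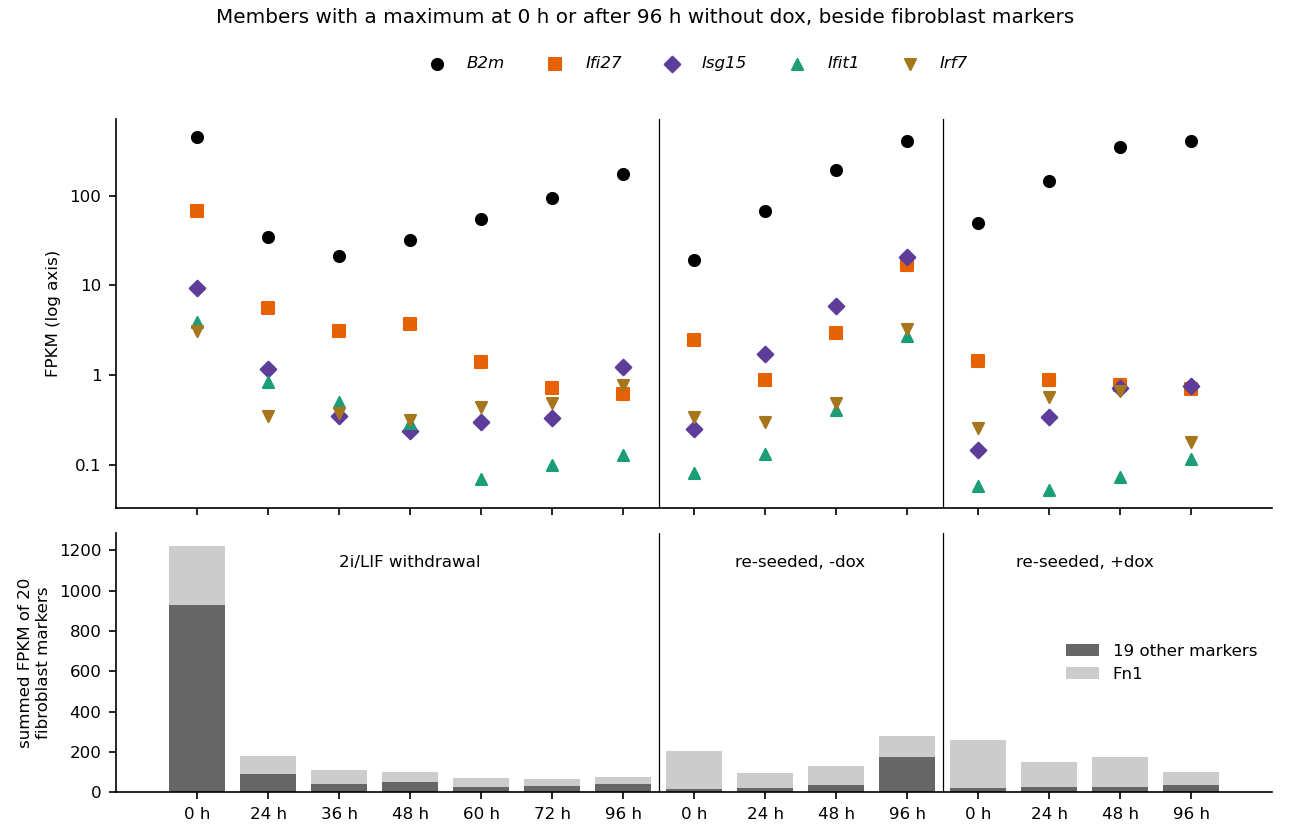
Top, FPKM (log axis) of 5 members in the 15 conditions, grouped by time course, –dox and +dox. Bottom, summed FPKM of 20 fibroblast markers in the same conditions, with Fn1 in light grey and the other 19 in dark grey, which stood at 930.2 FPKM at 0 h of withdrawal and 177.5 FPKM at 96 h –dox.

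Markers of immune and endothelial cells were read in the same way. Over the immune cell markers the sum was highest at 0 h +dox, at 250.6 FPKM, carried by Laptm5 (154.6 FPKM) and Cd68 (90.1 FPKM), and 28.3 FPKM at 96 h –dox against 51.5 FPKM at 96 h +dox. Cd68 made up much of the latter 2 sums, at 16.2 and 47.3 FPKM. At 96 h 4 immune cell markers reached 1 FPKM in either arm, 2 at least 2-fold lower with dox and 1 higher. The median log2 ratio of the 4 was -1.20, where 11.1% of all genes were lower and 6.67% higher. The defining genes Ptprc and Emr1 were at no more than 0.03 FPKM in any condition. The endothelial sum was 67.1 FPKM at 0 h, of which Pecam1 made 45.0 FPKM. It was 25.8 FPKM at 96 h –dox, against 6.66 FPKM at 96 h +dox and 5.597 FPKM at the 96 h timepoint. At 96 h 5 endothelial markers reached 1 FPKM in either arm, and 4 were at least 2-fold lower with dox and 1 higher. Their median log2 ratio was -2.77, and over all genes 11.1% were lower and 6.67% higher. At 48 h 1 of 5 was lower and 3 higher, against 6.46% and 6.56% of genes, with sums of 9.06 FPKM –dox and 31.2 FPKM +dox. The highest sums were those of re-seeded 0 h cells, 78.3 FPKM –dox and 76.7 FPKM +dox. Cdh5, chosen after its values were seen, was at 13.1 FPKM at 96 h –dox and at no more than 0.776 FPKM elsewhere, and Csf1r, likewise, at 5.83 FPKM and no more than 0.811 FPKM. The 3 endothelial markers with the highest means did not share this pattern. At 96 h –dox and +dox, Pecam1 was at 1.52 and 0.462 FPKM, Eng at 0.304 and 0.585 FPKM and Tek at 0.361 and 3.15 FPKM. The part of such cells in the members' levels at 96 h –dox was not tested. Gbp2 and Irf1 were highest at 48 h –dox, where the fibroblast sum without Fn1 was 34.5 FPKM and Cdh5 0.244 FPKM.

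The cells' pluripotency markers differed between the arms as well. Summed over 12 markers they were at 641.7 FPKM at 48 h –dox and 1302 FPKM at 48 h +dox, and at 103.4 and 180.9 FPKM at 96 h. At 48 h 8 of the 12 were at least 2-fold higher with dox and 0 lower, against 6.56% and 6.46% of genes. At 96 h they were split, with 5 higher and 4 lower (median log2 ratio 0.14), against 6.67% and 11.1% of genes. Utf1 was then at 35.8 and 91.5 FPKM and Tdgf1 at 3.72 and 1.69 FPKM. Pou5f1 (Oct4) was at 72.6 FPKM –dox and 203.5 FPKM +dox at 48 h, Sox2 at 43.4 and 87.8 FPKM, Klf4 at 4.68 and 14.6 FPKM and Myc at 35.9 and 18.7 FPKM, where transgene and endogenous transcripts are not separated. At 24 h the sums were 1345 FPKM –dox and 1440 FPKM +dox. Gbp2, Irf1 and Isg15 stood lower with dox at 24, 48 and 96 h, where the marker sums were higher with dox. At 0 h the marker sums were 2681 FPKM –dox and 1915 FPKM +dox. Irf1 was also lower with dox there, and Gbp2 and Isg15 were under 1 FPKM in both arms. Whether the state of the cells or OSKM bears on the members was not tested.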

How the data were processed

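RNA-seq of polyadenylated RNA was measured in 30 samples, 2 replicates in each of 15 conditions. According to the study's methods and the submitters' processing notes, the authors mapped reads to mm10 with TopHat2 2.0.14, used Cufflinks 2.2.1 on Gencode M4 (6 biotypes, 200 bp or longer) and combined replicates in Cuffdiff. The deposited values are FPKM, 1 per condition. How Cuffdiff scaled the libraries and whether it used strand are not given in the sources used here. The deposited table is also called RPKM. Its 5 columns of the authors' own calls (response to dox at 4 times and the cluster) were not used.

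Values were used as deposited, with Python 3.11.15, numpy 2.4.6, pandas 2.3.3 and matplotlib 3.10.9. Conditions summed to between 603278 and 832607 FPKM, and median-ratio factors over 14518 genes ran from 0.990 to 1.03. A gene counted as lower or higher at 2-fold with the higher value at 1 FPKM or more. Ratios had no pseudocount, and a ratio with a value at 0 was left out of medians. The counting step was tested on simulated data. Read counts are not given, and each condition has no replicate value, so no test, interval or leave-one-out analysis was made and the depth limits low values most. Relative depth was read from the steps between low values (transcript length less 300 bp, Gencode M21 lengths), chosen after seeing the data. The steps are not counts.

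The members and lists were chosen with earlier results of these data known. The text names the 9 members. It also names, of each list, among genes reaching 5 FPKM in a re-seeded condition, the 2 with the largest fall and the 2 with the largest rise at 48 h and at 96 h, the 3 genes most like Gbp2, Irf1 and Isg15, those of the 3 highest genes of each marker list that a result turns on, and the OSKM genes. Some genes that this rule names are not reported here. Positions come from Gencode M21 on mm10 and stretches before the start from RefSeq on GRCm38.p6. Shared 50-base stretches were counted over Gencode M21 transcripts. Alternatives were tried for the minimum, the fold, the pseudocount and the scaling.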

Additional observations from a re-analysis of the deposited data

Results flagged for a closer look

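The dox ratio of Bst2 changed sign with the time of differentiation. The log2 ratio of +dox to –dox was 0.25 at 24 h and 0.30 at 48 h, both under 2-fold, and -1.26 at 96 h. It was picked out because +dox lay above –dox at 24 and 48 h and below it at 96 h. The difference between the times was not tested, since each condition has 1 value.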

How the results depend on the processing

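Each condition is 1 FPKM value, so the counts and medians below have no error, and low values rest on few reads. No paired analysis was possible because the deposited table combines the 2 replicates of each condition. Leaving out a replicate was not possible for the same reason. Of 191 recomputed values, 63 moved, 128 did not, and none changed direction. Scaling by median-ratio factors moved none of the 29 values.

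In the following, wider genes are those of the 9 lists, and lower and higher refer to +dox against –dox unless re-seeding is named. With a fold of 1.5, lower members at 0 h went from 1 to 2 and higher members at 48 h from 0 to 1. Members higher after re-seeding became 2 at 0 h and 4 at 24 h. Lower wider genes became 16, 20 and 53 at 0, 24 and 96 h, and higher ones 8, 6 and 9 at 0, 24 and 48 h. With a fold of 3, no member was lower at 0 h or higher at 0 or 24 h (0 each). Lower wider genes became 2, 4, 17 and 23 from 0 to 96 h and higher ones 1, 0, 0 and 2.

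With at least 1 FPKM required of both values, lower members became 2 at 48 h and 3 at 96 h. Members higher after re-seeding became 1, 2 and 3 at 24, 48 and 96 h, and lower ones 2 at 0 h and 0 at 24 h. Lower wider genes became 7, 17 and 14 at 24, 48 and 96 h, and higher ones 0 and 1 at 0 and 24 h. With a minimum of 5 FPKM in the higher value, members lower after re-seeding at 0 h became 3. Lower wider genes became 2, 1, 14 and 13 from 0 to 96 h, and higher ones 0, 0 and 3 from 0 to 48 h. With no minimum, members lower at 0 h became 2, higher at 24 h 2, and lower after re-seeding at 24 h 3. Lower wider genes became 22, 31 and 55 at 0, 24 and 96 h, and higher ones 12, 6 and 8 at 0, 24 and 48 h.

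A pseudocount of 1 FPKM gave member medians of -0.43, -1.01, -1.58 and -1.80 from 0 to 96 h. Lower wider genes then became 4 and 20 at 24 and 48 h, and higher ones 0, 0 and 2 from 0 to 48 h. A pseudocount of 0.1 FPKM gave a member median of -3.06 at 96 h. Over members reaching 5 FPKM, the medians were -0.34, -0.44 and -1.92 at 0, 24 and 96 h. Fewer genes or members enter under the higher minimums, and low values are drawn together by a pseudocount.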
